A study of Mus musculus with 11 samples.

Results

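The genes described here are 10 transcripts of the Leydig cell: Star, Cyp11a1, Cyp17a1, Hsd3b1, Hsd3b6, Hsd17b3, Insl3, Lhcgr, Srd5a1 and Akr1c14. They were chosen by name, through the Ensembl identifiers that carry these symbols in GENCODE M21, and all 10 were found among the 23074 genes of the count table. Each of them also passed the filter on low counts, which kept 15745 genes for testing. RNA-Seq counts came from testes of 5 wild type and 6 Rfx2-/- mice on postnatal day 21. All mice were of a mixed background of the strains C57BL/6, 129/Sv and FVB/N, and each library was made from total RNA of testis stripped of its capsule. Rfx2-/- mice lack exon 7 of Rfx2, which encodes most of the DNA binding domain of this transcription factor. The exon had been flanked by loxP sites and was removed by an ACTB-cre transgene that acts in all tissues. The deletion is therefore present in Leydig cells as well as in germ cells. The study's methods name littermates of the same age as the preferred controls, but the labels do not give the litter of any mouse.

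Leydig cells lie between the seminiferous tubules and make testosterone from cholesterol under control of luteinizing hormone (LH), which acts through its receptor, LHCGR. STAR carries cholesterol to the inner mitochondrial membrane, CYP11A1 cleaves its side chain, and the enzymes HSD3B1 or HSD3B6, CYP17A1 and HSD17B3 complete the steps to testosterone. At puberty the fetal Leydig cells give way to an adult population, and immature adult cells further convert androgens with SRD5A1 and AKR1C14.

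Only 1 of the 10 genes passed the test between genotypes, Hsd3b1, which was lower in Rfx2-/- testis in a background of 1.94% of all tested genes called lower. None was called higher, against 0.73% of tested genes in edgeR, 7.09% in DESeq2 and 2.33% in limma voom. At an unadjusted p under 0.05 in edgeR, 4 were lower and 0 higher, whereas 23.7% of tested genes were lower and 18.1% higher. In 3 of the 10 genes, Hsd3b1, Lhcgr and Hsd17b3, no Rfx2-/- mouse reached the lowest wild type mouse, which held for 5.2% of tested genes. The reverse pattern was found in 0 of the 10 genes and in 6.5% of tested genes. At a looser adjusted p of 0.05 the same 3 genes were lower, compared with 8.78% of tested genes. Hsd3b1 and Lhcgr kept this looser call in all 11 fits that left out 1 mouse, and Hsd17b3 lost it in 7 of them. The remaining genes overlapped between genotypes, and Star, Cyp11a1, Cyp17a1 and Insl3 differed several-fold between mice of a single genotype.

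Total counts lay between 22232097 and 29769483 per mouse, so that a floor of 3 counts was worth between 0.0851 and 0.139 counts per 1000000 counts of the library (CPM). The count of the targeted gene, Rfx2, ranged from 191 to 471 CPM in wild type and from 282 to 324 CPM in Rfx2-/- mice. It does not check the deletion, since it also covers the exons that were kept. Wild type replicate 1 stood apart in markers of the epididymis, the duct next to the testis, whose 5 genes summed to 405 CPM there and to between 4.13 and 80.4 CPM in the other mice. Markers of round spermatids, the first germ cells after meiosis, summed to between 5.59 and 301 CPM in wild type and between 26.7 and 499.7 CPM in Rfx2-/- mice. Wild type replicates 3 and 5 had the lowest such sums and the highest sums of Sertoli cell markers. Of the adrenal cortex, which makes steroids with several of the same genes, the enzyme genes Cyp11b1, Cyp11b2 and Cyp21a1 and the receptor gene Mc2r stayed at or below 1.09 CPM. A further gene of the adrenal list, Akr1b7, reached 43.9 CPM in wild type replicate 1 and 17.4 CPM in Rfx2-/- replicate 9. The epididymal markers summed to 405 and 69.3 CPM in these mice. In wild type replicate 4 they summed to 80.4 CPM, and Akr1b7 had 2.38 CPM there. The tissue that Akr1b7 came from was not tested. Red blood cell markers summed to 42.3 to 119 CPM in wild type and 29.6 to 131 CPM in Rfx2-/- mice.

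Hsd3b1 (ENSMUSG00000027871, GRCm38 chr3:98852194-98859794, minus strand) and Hsd3b6 (ENSMUSG00000027869, chr3:98805504-98814443, minus strand) are neighbouring copies separated by 0.038 Mb. Both encode dehydrogenases that turn pregnenolone into progesterone, and Hsd3b6 is known as the form that marks adult Leydig cells in the mouse. Their coding sequences are each 1122 nt long and differ at 112 positions, an identity of 90.02%. The stretch with the most differences is shown because the comparison below depends on reads that can tell the copies apart. It spans coding positions 43 to 162 of the GENCODE M21 transcripts, and capitals mark the 25 bases that differ.
Hsd3b1: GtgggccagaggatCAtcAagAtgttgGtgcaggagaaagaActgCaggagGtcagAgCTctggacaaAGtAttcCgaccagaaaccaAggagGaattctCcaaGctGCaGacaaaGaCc
Hsd3b6: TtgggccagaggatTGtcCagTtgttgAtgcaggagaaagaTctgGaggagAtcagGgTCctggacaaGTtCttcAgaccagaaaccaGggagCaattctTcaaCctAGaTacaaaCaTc
Of the 1073 windows of 50 bases along the coding sequence, 38 held no difference between the copies. Over whole transcripts, 4.86% of the 50-base stretches of Hsd3b1 and 16.1% of those of Hsd3b6 also occurred in transcripts of other genes, mainly other Hsd3b copies and pseudogenes. Reads from such stretches map to several places and were discarded by the authors, so both levels can be underestimated.

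Hsd3b1 levels in wild type replicates 1 to 5 were 94.2, 80.9, 99.1, 72.7 and 109 CPM. It had 47.6, 60.04, 42.0, 47.3, 49.9 and 54.0 CPM in Rfx2-/- replicates 6 to 11. Its highest value in an Rfx2-/- mouse was thus below its lowest value in wild type, and mice of either genotype stayed close to each other. The mean level was 91.2 ± 14.4 CPM (SD, n = 5) without and 50.1 ± 6.22 CPM (SD, n = 6) with the deletion. The log2 fold change was -0.86 ± 0.116 (SE), with a Benjamini-Hochberg adjusted p of 0.00126 from the quasi-likelihood test of edgeR. Hsd3b1 was lower in every fit that left out 1 mouse, with adjusted p between 0.00116 and 0.00511 (edgeR). Without wild type replicate 1, the library with the most epididymal transcripts, the log2 fold change was -0.85 with an adjusted p of 0.00331 (edgeR).

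Hsd3b6 behaved differently from its neighbour. Wild type mice had 61.9, 51.5, 21.7, 32.9 and 18.9 CPM, and Rfx2-/- mice had 32.6, 38.5, 26.2, 28.4, 29.2 and 48.6 CPM. All Rfx2-/- values fell inside the wild type range, and the log2 fold change was -0.14 ± 0.306 (SE) with an adjusted p of 0.736 (edgeR). Without wild type replicate 1 it was 0.12. The wild type mice with the most Hsd3b1, replicates 3 and 5, had the least Hsd3b6. The log2 ratio of Hsd3b6 to Hsd3b1 counts was -0.61, -0.65, -2.19, -1.15 and -2.53 in wild type. It lay between -0.77 and -0.15 in Rfx2-/- mice. Its mean was 0.84 higher in Rfx2-/- mice, with p = 0.0346 in a two-sided exact permutation test over 462 splits of the mice and 0.104 after adjustment over the 6 ratios examined. The ranges of this ratio overlapped between genotypes, and the difference was 0.56 without wild type replicate 5.

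**Figure D1:**
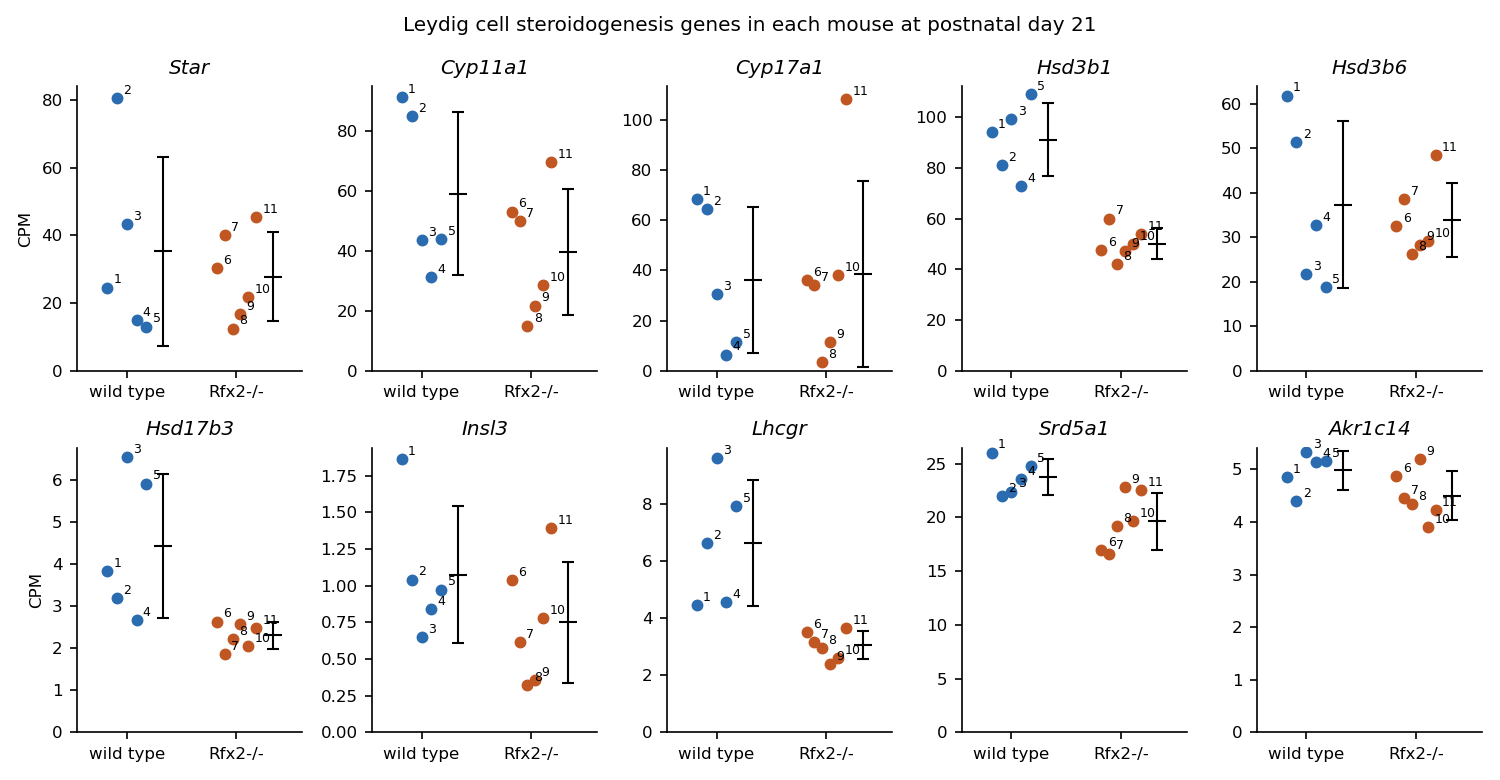
CPM of each of the 10 genes (vertical axes, linear and starting at 0) in each mouse, with wild type in blue and Rfx2-/- in orange; small digits are replicate numbers, and black bars give the mean ± SD of 5 or 6 mice. Groups do not overlap for Hsd3b1, Hsd17b3 and Lhcgr, whereas Cyp17a1 runs from 3.42 to 108 CPM within Rfx2-/- mice.

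Lhcgr (ENSMUSG00000024107, chr17:88716481-88791990, minus strand) encodes the receptor through which LH drives the pathway. It had 4.47, 6.62, 9.62, 4.55 and 7.92 CPM in wild type mice and 3.51, 3.18, 2.96, 2.399 and 2.61 CPM in Rfx2-/- replicates 6 to 10, with 3.66 CPM in replicate 11. The groups did not overlap. The log2 fold change of Lhcgr was -1.12 ± 0.215 (SE), the most negative of the 10, but its adjusted p of 0.0102 in edgeR's quasi-likelihood test missed the threshold of 0.01. DESeq2 and limma voom called it lower, with adjusted p of 0.000116 and 0.00373, in a background of 5.43% and 4.33% of their tested genes. With total counts as library sizes, edgeR called Lhcgr and Hsd3b1 lower and none of the 10 higher, against 2.74% and 0.616% of tested genes. Without wild type replicate 1 the adjusted p of Lhcgr was 0.00541 in edgeR, and without replicate 4 it was 0.00713. Leaving out any other mouse gave values between 0.0194 and 0.0315. Lhcgr lies on the same chromosome as Rfx2, 31.89 Mb away, and whether the targeted haplotype bears on its level was not tested.

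Hsd17b3 (ENSMUSG00000033122, chr13:64058266-64089230, minus strand) encodes the enzyme of the last step to testosterone. Its wild type values were 3.84, 3.19, 6.53, 2.66 and 5.91 CPM, and its Rfx2-/- values were 2.63, 1.86, 2.22, 2.58, 2.04 and 2.48 CPM. The groups met closely, since wild type replicate 4 at 2.66 CPM was barely above Rfx2-/- replicate 6. The log2 fold change was -0.94 ± 0.234 (SE), with an adjusted p of 0.0287 (edgeR) that ranged from 0.0127 to 0.069 without 1 mouse. DESeq2 gave an adjusted p of 0.0046 for Hsd17b3, and limma voom gave 0.0467.

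Sertoli cells nurse the germ cells inside the tubules, and none of their 12 markers was called at an adjusted p of 0.01 (edgeR). All 12 had log2 fold changes below 0, as did 54.8% of tested genes, and their median was -0.33. At an unadjusted p under 0.05, 10 of the 12 were lower, compared with 23.7% of tested genes. DESeq2 called 1 of them, Wt1. Summed Sertoli markers were 3121 to 4637 CPM in wild type and 3009 to 3556 CPM in Rfx2-/- mice, and none of the 12 was at 0. With the mean Sertoli marker level of each mouse as a covariate, Hsd3b1 kept a log2 fold change of -0.79 with an adjusted p of 0.0143, just outside the threshold (edgeR). In that fit none of the 10 genes was called lower or higher, against 3.04% and 0.318% of tested genes. Lhcgr had -0.60 with an adjusted p of 0.211, and Hsd17b3 had -0.39 with an adjusted p of 0.429 (edgeR). The mean Sertoli marker level was 6.003 to 6.575 log2 CPM in wild type and 5.786 to 6.042 in Rfx2-/- mice. All wild type mice except replicate 1 were above every Rfx2-/- mouse. The covariate and the genotype are thus partly confounded, and the lost calls cannot be assigned to either. With the round spermatid score as a covariate instead, Hsd3b1 had -0.87 with an adjusted p of 0.000894 (edgeR). When wild type replicates 3 and 5 were left out together, Hsd3b1 stayed called, with -0.71 and an adjusted p of 0.00473, Lhcgr had -0.76 with 0.0289, and Hsd17b3 had -0.48 with 0.104 (edgeR). In whole testis RNA, a smaller share of RNA from Leydig cells and less RNA of these genes per Leydig cell cannot be told apart.

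Star (ENSMUSG00000031574, chr8:25806555-25815982, plus strand) had 24.6, 80.4, 43.4, 15.0 and 13.1 CPM in wild type and 30.5, 40.1, 12.5, 16.7, 21.7 and 45.3 CPM in Rfx2-/- mice. The single highest mouse was wild type replicate 2, and the rest of both groups covered nearly the same range. The log2 fold change was -0.34 ± 0.497 (SE), with an adjusted p of 0.602 (edgeR), and without wild type replicate 2 it was 0.21.

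Cyp11a1 (ENSMUSG00000032323, chr9:58006411-58027023, plus strand) encodes the first and rate-limiting enzyme of steroid synthesis. It had 91.1, 85.0, 43.5, 31.3 and 43.9 CPM in wild type and 53.0, 49.9, 14.8, 21.7, 28.7 and 69.4 CPM in Rfx2-/- mice. Both of the highest values were from wild type replicates 1 and 2, and the 3 lowest were from Rfx2-/- mice. This difference was within the spread of the replicates, at a log2 fold change of -0.57 ± 0.414 (SE) and an adjusted p of 0.297 (edgeR). It was -0.36 without wild type replicate 1.

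Cyp17a1 (ENSMUSG00000003555, chr19:46667165-46673172, minus strand) encodes the enzyme that yields androstenedione. It varied more than any other of the 10, with 68.3, 64.4, 30.5, 6.48 and 11.5 CPM in wild type and 36.2, 34.3, 3.42, 11.4, 38.1 and 108 CPM in Rfx2-/- mice. The highest wild type mouse had 10.6 times the level of the lowest, a ratio larger than that of 95.5% of tested genes, whose median was 1.61. Among Rfx2-/- mice the ratio was 31.6, larger than that of 98.2% of tested genes, whose median was 1.33. The log2 fold change of Cyp17a1 was 0.09 ± 0.795 (SE), and its adjusted p was 0.937 (edgeR). Its direction turned with the processing, since it was -0.03 with total counts as library sizes and -0.02 in limma voom. Leaving out wild type replicate 1 gave 0.45, and leaving out Rfx2-/- replicate 11 gave -0.55.

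Insl3 (ENSMUSG00000079019, chr8:71689214-71690575, plus strand) encodes a peptide hormone of Leydig cells that acts on the gubernaculum and on germ cells. Of its 623 nt of exons, 404 nt are also annotated to Jak3 on the same strand, and reads on exons of both genes were excluded by the authors. Its counts, 7 to 53 per mouse, therefore rest mainly on the other 219 nt and understate its level. Within this limit Insl3 had 1.87, 1.04, 0.653, 0.841 and 0.974 CPM in wild type and 1.04, 0.619, 0.324, 0.355, 0.782 and 1.39 CPM in Rfx2-/- mice. The ranges overlapped, and the log2 fold change was -0.51 ± 0.397 (SE) with an adjusted p of 0.336 (edgeR). It moved to -0.22 once wild type replicate 1 was left out (adjusted p = 0.651, edgeR), and to -0.77 once Rfx2-/- replicate 11 was.

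Srd5a1 (ENSMUSG00000021594, chr13:69573449-69611442, minus strand) and Akr1c14 (ENSMUSG00000033715, chr13:4049011-4090688, plus strand), which act on androgens in immature Leydig cells, were the steadiest of the 10. Srd5a1 lay between 21.9 and 26.0 CPM in wild type and between 16.6 and 22.8 CPM in Rfx2-/- mice, with a log2 fold change of -0.27 ± 0.100 (SE) and an adjusted p of 0.0728 (edgeR). Rfx2-/- replicates 9 and 11 overlapped with wild type, and the other 4 lay below it. Akr1c14 lay between 4.40 and 5.34 CPM in wild type and between 3.91 and 5.199 CPM in Rfx2-/- mice, with a log2 fold change of -0.15 ± 0.102 (SE) and an adjusted p of 0.282 (edgeR). Of the 50-base stretches of Srd5a1, 16.5% also occur in the transcript Gm17108, and 5.9% of those of Akr1c14 in Gm18857. For Cyp11a1 the share was 4.07%, in Gm17322. Whether these transcripts lie elsewhere in the genome, which would make such reads map to several places, was not tested. Levels of these genes can thus be less certain than that of Star, which had no such stretch.

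Levels were compared between genes as CPM per kilobase of merged exons (RPKM), which corrects for transcript length. In wild type testis Hsd3b1 was highest, at 49.1 ± 7.78 RPKM (SD, n = 5), and was above Cyp11a1 in 5 of 5 mice. Cyp11a1 at 24.7 ± 11.4, Hsd3b6 at 20.7 ± 10.4 and Cyp17a1 at 15.0 ± 11.97 RPKM followed. Their SDs were larger than the steps between them, so that their order is not fixed by these data. Srd5a1 (8.97 ± 0.634 RPKM) and Star (8.58 ± 6.80 RPKM) had nearly equal means and kept this order in 3 of 5 mice. Hsd17b3 (3.18 ± 1.22), Akr1c14 (1.57 ± 0.115) and Lhcgr (0.972 ± 0.324 RPKM) were lowest. Insl3 had 1.73 RPKM over all its exons and 4.91 RPKM over the 219 nt not shared with Jak3, so its rank depends on the length used. In Rfx2-/- testis Hsd3b1 had the highest mean, at 27.0 ± 3.35 RPKM (SD, n = 6), and exceeded Hsd3b6 at 18.8 ± 4.64 RPKM in 6 of 6 mice. In Rfx2-/- replicate 11, however, Cyp17a1 at 44.7 RPKM was above Hsd3b1 at 29.1 RPKM, and Cyp11a1 was level with it. Hsd3b1 made up 38.5% ± 10.8 (SD, n = 5) of the summed RPKM of the 10 genes in wild type and 29.7% ± 6.99 (SD, n = 6) in Rfx2-/- mice.

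**Figure D2:**
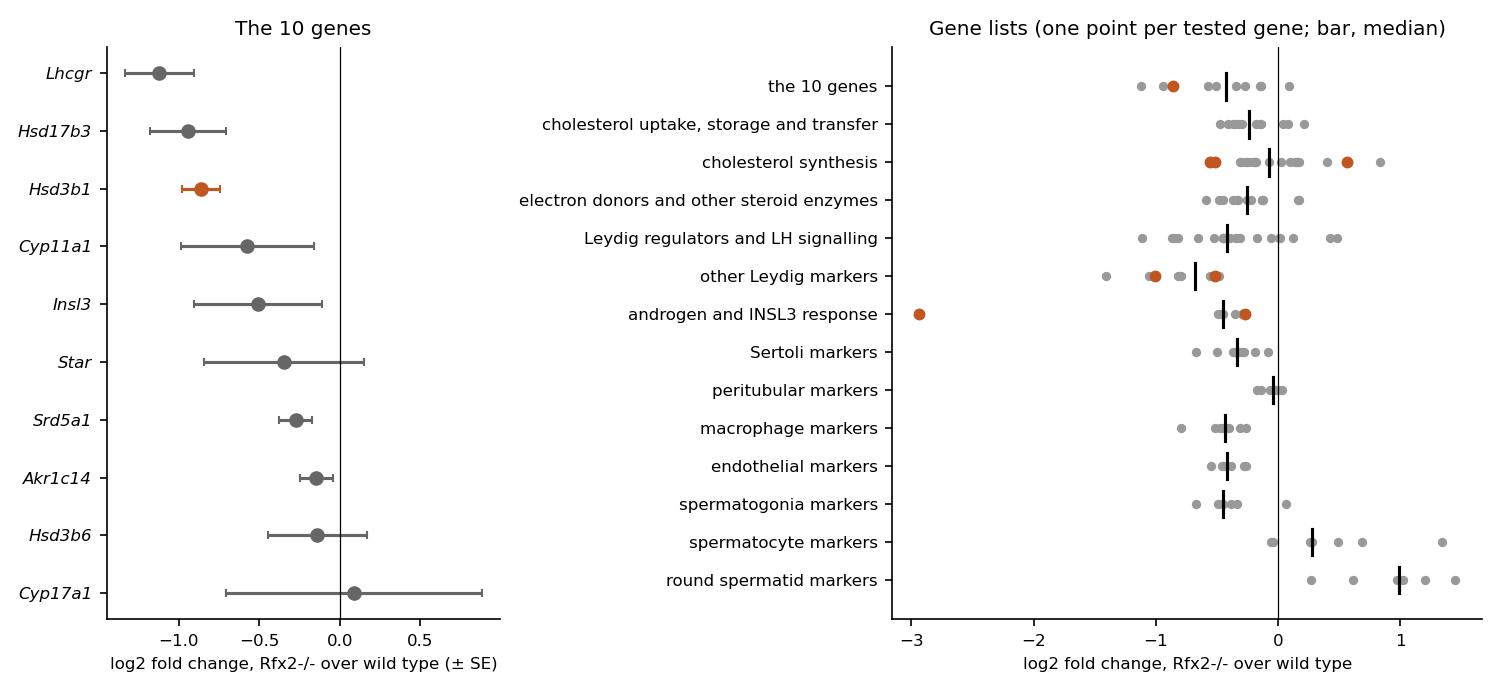
Left, log2 fold change of Rfx2-/- over wild type (horizontal axis) for the 10 genes with SE bars; right, the same value for each tested gene of the lists described in the text, with black bars for medians. Orange marks an adjusted p of at most 0.01 in edgeR's quasi-likelihood test: Hsd3b1 alone at left, and few genes of any list at right.

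The 10 genes did not vary as a single block between mice. Correlations were computed on log2 CPM after the mean of each genotype was subtracted, over 11 mice and 45 pairs, with exact permutation of mice within genotypes. Cyp11a1 and Cyp17a1 varied together, with Pearson's r = 0.92 (exact p = 0.000243, adjusted 0.0109) and Spearman's rho = 0.94 (exact p = 0.000405, adjusted 0.0109). Without both mice farthest from the median of Cyp11a1, r was 0.88, and on log2 CPM without centring it was 0.85. Insl3 followed Cyp11a1 with r = 0.85 (exact p = 0.00326, adjusted 0.0734) and rho = 0.91 (exact p = 0.000486, adjusted 0.0109), and r was 0.75 without the 2 farthest mice. By Pearson's r, 1 of 45 pairs passed an adjusted p of 0.05 in this exact permutation test, and 3 passed by Spearman's rho.

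Mice high in Cyp17a1 were wild type replicates 1 and 2 and Rfx2-/- replicate 11, and mice low in it were wild type replicate 4 and Rfx2-/- replicate 8. The same mice stood high or low in Cyp11a1. Grouped after these values were seen, Star, Cyp11a1, Cyp17a1, Hsd3b6 and Insl3 had r between 0.39 and 0.92 with each other over the 10 pairs. Without the 2 mice farthest from the median, r of these pairs ran from 0.265 for Star and Hsd3b6 to 0.88 for Cyp11a1 and Cyp17a1. Between these 5 genes and Hsd3b1, Hsd17b3 and Lhcgr, r lay between -0.57 and 0.45 over 15 pairs. Hsd3b1, Hsd17b3 and Lhcgr had r of 0.51 to 0.70 with each other, but r fell to between 0.15 and 0.37 without the 2 mice farthest from the median, and none of these 3 pairs passed. Hsd3b1 and Hsd3b6 had r = -0.12 (exact p = 0.766, adjusted 0.970) and rho = -0.14 (exact p = 0.731, adjusted 0.928). Mice share library depth and cell composition in these values, and the part of either in the correlations was not tested.

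**Figure D3:**
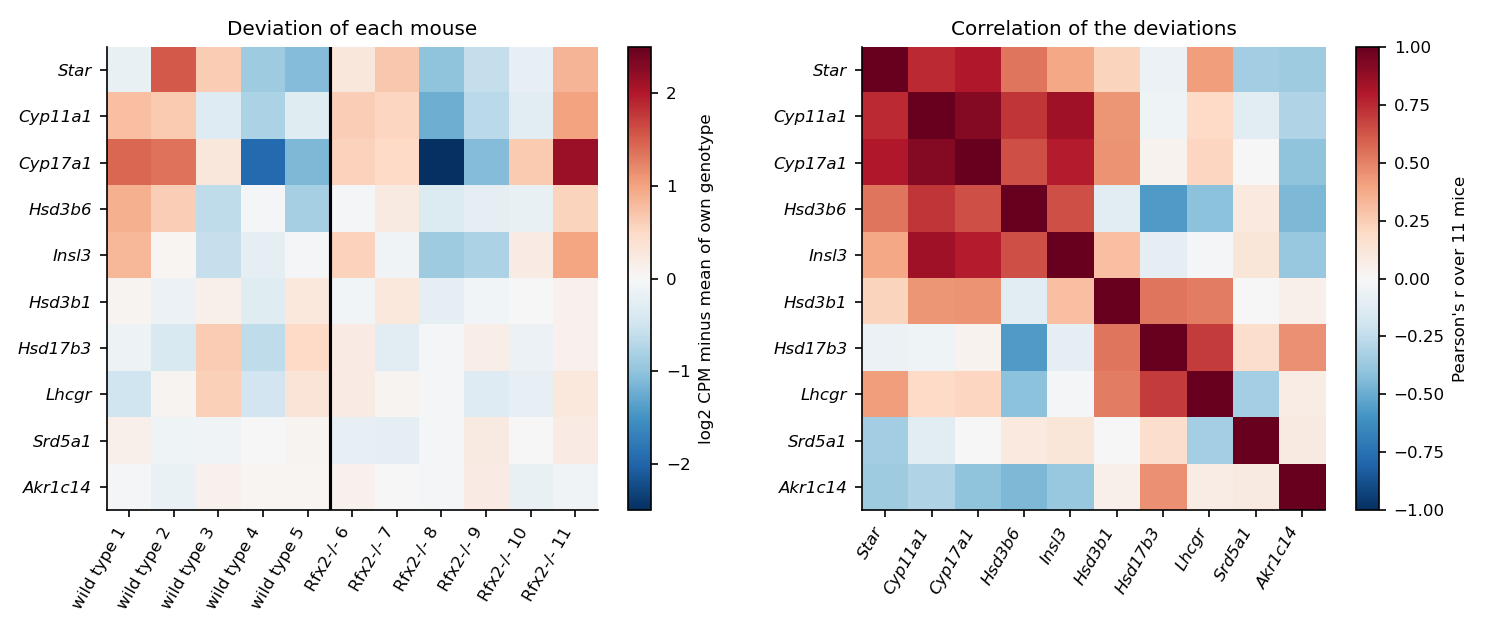
Left, log2 CPM of each gene in each mouse minus the mean of the mouse's own genotype (colour scale from -2.5 to 2.5), with a black line between genotypes; right, Pearson's r of these deviations between genes over 11 mice (colour scale from -1 to 1). The block of Star, Cyp11a1, Cyp17a1, Hsd3b6 and Insl3 at top left holds r from 0.39 to 0.92, and Cyp17a1 has the deepest colours at left.

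Within-mouse ratios, which do not depend on the scaling of libraries, were compared between genotypes for 6 pairs by two-sided exact permutation tests, whose smallest possible p was 0.00216. None passed after adjustment over the 6. The log2 ratio of Hsd17b3 to Akr1c14 was -0.34, -0.46, 0.29, -0.95 and 0.20 in wild type. In Rfx2-/- mice it was -0.88, -1.25, -0.96, -1.01, -0.93 and -0.76. Apart from wild type replicate 4, every wild type mouse was above every Rfx2-/- mouse. The means differed by -0.71, with an exact p of 0.00866 and an adjusted p of 0.0519. The ratio of Lhcgr to Cyp11a1 differed by -0.42 (exact p = 0.394, adjusted 0.473), and that of Star to Cyp11a1 by 0.50 (exact p = 0.225, adjusted 0.450). The ratio of Cyp17a1 to Cyp11a1 differed by 0.59 (exact p = 0.348, adjusted 0.473) and that of Insl3 to Cyp11a1 by 0.06 (exact p = 0.799, adjusted 0.799). For Star and Cyp11a1 the wild type mice spread from -1.89 to 0.00 on the log2 scale and the Rfx2-/- mice from -0.80 to -0.25. These differences moved with single mice. That of Lhcgr to Cyp11a1 was -0.73 without wild type replicate 1 and -0.19 without replicate 3, and that of Star to Cyp11a1 was 0.26 and 0.73 without the same mice. That of Cyp17a1 to Cyp11a1 ranged from 0.30, with wild type replicate 4 left out, to 0.91, with Rfx2-/- replicate 8 left out.

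**Figure D4:**
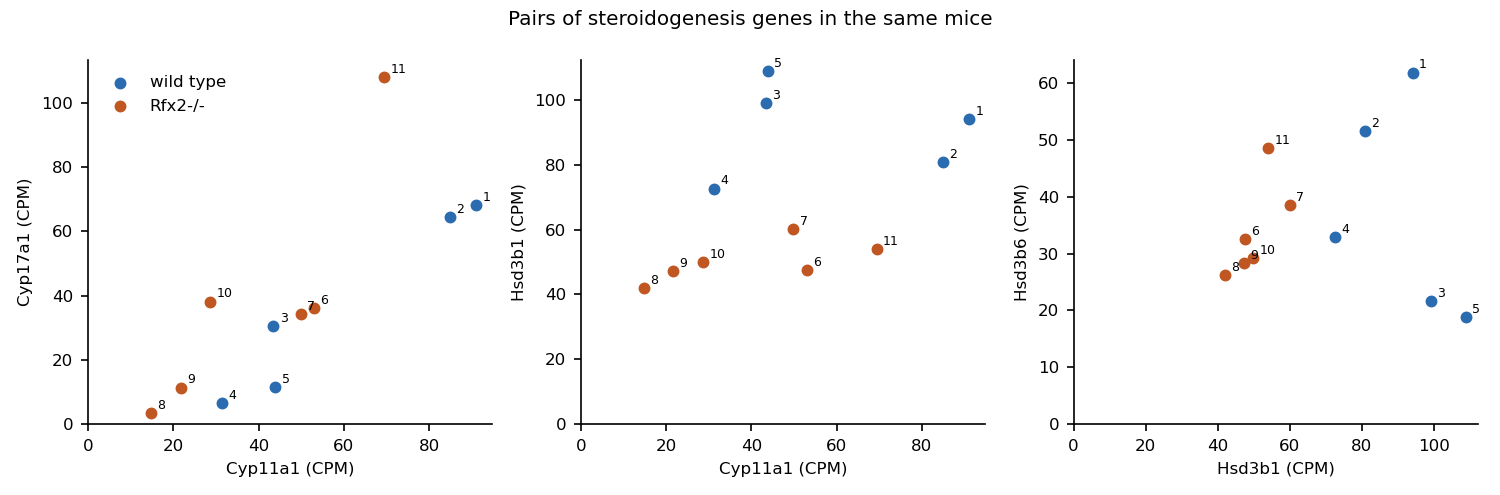
CPM of 3 pairs of genes in the same mice (linear axes from 0; wild type in blue, Rfx2-/- in orange, digits are replicate numbers). Cyp17a1 rises with Cyp11a1 in both genotypes, Hsd3b1 lies higher in wild type at any level of Cyp11a1, and wild type replicates 3 and 5 combine the most Hsd3b1 with the least Hsd3b6.

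The genes around the pathway were read from 6 lists. Counts of their genes at an unadjusted p under 0.05 stand against the 23.7% lower and 18.1% higher of all tested genes given above. DESeq2 called 5.43% of its tested genes lower and 7.09% higher, and limma voom called 4.33% lower and 2.33% higher. Their medians can be set beside the median of -0.05 over all tested genes and of -0.43 over the 10 Leydig genes. Among 12 genes for uptake, storage and transfer of cholesterol, 0 were called at an adjusted p of 0.01 (edgeR), and the median log2 fold change was -0.24. Of these 12, 6 were lower at an unadjusted p under 0.05 and 0 higher, and DESeq2 called Dbi and Tspo lower while limma voom called 1. Dbi, which encodes a carrier of acyl-CoA that binds TSPO, had -0.37 with an adjusted p of 0.0204 (edgeR). Tspo, which encodes a protein of the outer mitochondrial membrane, had -0.47 with an adjusted p of 0.0333 (edgeR).

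The 21 genes of cholesterol synthesis had a median of -0.07. In edgeR 2 of them were called lower and 1 higher, against 1.94% and 0.73% of tested genes. At an unadjusted p under 0.05, 5 were lower and 5 higher, against 23.7% and 18.1% of tested genes. DESeq2 called 2 lower and 2 higher, and limma voom 2 lower and 1 higher. Nsdhl, which encodes an enzyme of a late step, was among those called lower by edgeR. Its log2 fold change was -0.52 ± 0.088 (SE), with an adjusted p of 0.00551 (edgeR). It had 13.9 to 18.6 CPM in wild type and 10.6 to 12.5 CPM in Rfx2-/- mice, with no overlap. Germ cells also make sterols, and whole testis counts do not separate them from Leydig cells. Electron donors and other steroid enzymes had 0 of 13 tested genes called in edgeR, with 6 lower and 1 higher at an unadjusted p under 0.05 and a median of -0.26. DESeq2 called 1 of them, Hsd17b4, higher, and limma voom called 0. Hsd17b4, a peroxisomal enzyme, had 0.17 with an adjusted p of 0.037, and H6pd, which supplies NADPH in the endoplasmic reticulum, had -0.37 with an adjusted p of 0.0418 (edgeR).

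None of the 24 regulators of Leydig cells and LH signalling was called by edgeR, although 15 were lower and 1 higher at an unadjusted p under 0.05, and the median was -0.42. DESeq2 called 5 of them lower, Pdgfra, Inha, Esr1, Igf1 and Prlr, and limma voom called 1. Inha, which encodes the alpha subunit of inhibin and is also made by Sertoli cells, had -0.44 with an adjusted p of 0.0217 (edgeR). Esr1, the estrogen receptor alpha, had -0.66 with an adjusted p of 0.024 (edgeR).

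Other Leydig markers had a median of -0.68, and 2 of the 10 tested genes were called lower (edgeR), against 1.94% of tested genes. All 10 had log2 fold changes below 0, and at an unadjusted p under 0.05, 4 were lower and 0 higher. DESeq2 called 3 lower, Aldh1a1, Prlr and Vcam1, and limma voom called 2. Vcam1, a cell adhesion molecule, had 48.0 to 81.3 CPM in wild type and 23.5 to 43.3 CPM in Rfx2-/- mice, at -1.005 ± 0.158 (SE) and an adjusted p of 0.00345 (edgeR). Aldh1a1, which makes retinoic acid and is also found in Sertoli cells, had 533 to 672 CPM in wild type and 381 to 437 CPM in Rfx2-/- mice, at -0.51 ± 0.078 (SE) and an adjusted p of 0.00273 (edgeR). In 3 of the 10 tested genes, Vcam1, Aldh1a1 and Prlr, every Rfx2-/- mouse was below every wild type mouse. This held for Hsd3b1 too, and for 5.2% of tested genes. Other genes of the list rested on single mice or low counts. Ptgds had 15.3 CPM in wild type replicate 1 and 1.65 to 6.23 CPM in the other wild type mice. Klk1b21 and Klk1b24 had 2.52 to 3.10 CPM in wild type replicates 1 and 2, and 0.408 to 0.981 CPM in replicates 3 to 5. Bhmt had 6 to 24 counts per mouse and Hsd11b1 had 7 to 25. The median of the list was not recomputed without wild type replicates 1 and 2. Vcam1 is also made by endothelial cells, whose 6 markers had a median of -0.42 with 0 called by edgeR, DESeq2 or limma voom. Of these 6, 4 were lower at an unadjusted p under 0.05 (edgeR), against 23.7% of tested genes.

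Of 7 genes that respond to androgen or to INSL3, 2 were called lower (edgeR), against 1.94% of tested genes. All 7 had log2 fold changes below 0, as did 54.8% of tested genes, with a median of -0.45. At an unadjusted p under 0.05, 5 were lower and 0 higher, and DESeq2 and limma voom each called 2 lower. Rxfp2, the receptor of INSL3, had 14.9, 10.2, 3.63, 9.21 and 3.20 CPM in wild type and 0.435 to 1.87 CPM in Rfx2-/- mice. Its log2 fold change was -2.94 ± 0.506 (SE), with an adjusted p of 0.00608 (edgeR), the steepest of all genes in the 6 lists. The ligand gene Insl3 was not called, as described above. Rxfp2 is known in the testis from germ cells. Eppin, an androgen-responsive gene of Sertoli cells, had -0.27 ± 0.046 (SE) with an adjusted p of 0.00599 (edgeR).

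Macrophage markers had a median of -0.44, with 8 of 8 below 0, and summed to 118 to 186 CPM in wild type and 95.0 to 138 CPM in Rfx2-/- mice. Spermatogonia markers had a median of -0.45, with 6 of 7 below 0, and spermatocyte markers one of 0.27, with 6 of 8 above 0. Peritubular cell markers, by contrast, had a median of -0.04. No gene of these 4 lists was called by edgeR. At an unadjusted p under 0.05, 5 macrophage and 3 spermatogonia markers were lower, against 23.7% of tested genes. At the same p, 5 spermatocyte markers were higher, against 18.1% of tested genes, and 0 peritubular markers differed. DESeq2 and limma voom each called 1 of these genes, a spermatocyte marker. No marker in these lists was at 0 in all mice. The part of cell composition in the values of the 10 Leydig genes was not tested beyond the fits with the spermatid and the Sertoli scores.

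The genes outside the set whose log2 CPM followed the mean z score of the 10 most closely over 11 mice were Ada, Timp1, Cyfip2, Arhgap24 and Cebpb, with Pearson's r of 0.95, 0.95, 0.95, 0.94 and 0.94. Among the 15745 genes ranked, Cyp11a1 itself (r = 0.88) was at rank 39 and Hsd3b1 (r = 0.82) at rank 128, whereas Akr1c14 (r = 0.32) was at rank 4574. These values are a description of the ranking, in which the 10 genes form part of their own mean.

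Promoter windows from RefSeq, 250 bases before to 50 after the start, were found on GRCm38.p6 for 8 of the 10 genes. Star and Cyp17a1 had no window. The letters AAGGTCA, which the steroidogenic factor NR5A1 is known to recognise, occurred on neither strand in 9 of 9 windows. Only this exact string was searched, so whether the windows hold NR5A1 sites with other letters was not tested. They occurred in 4.72% of all 32851 promoter windows. Nr5a1 itself had 79.6 to 139 CPM in wild type and 72.9 to 96.0 CPM in Rfx2-/- mice, with a log2 fold change of -0.39 and an adjusted p of 0.0566 (edgeR).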

How the data were processed

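Testis RNA of 5 wild type and 6 Rfx2-/- mice was analysed. According to the submitters' processing notes and the study's methods, the authors used CASAVA 1.8.2, STAR 2.4 and featureCounts 1.4.6 with GRCm38, discarded reads mapping to several places, and counted reads on merged exons of protein coding isoforms, leaving out reads on exons of different genes. The study's text gives different read lengths and aligners in different paragraphs. The table deposited by the authors holds raw counts of 23074 genes, without normalization. No row lacked a gene identifier. Symbols from GENCODE M21 were found for 22293 identifiers and not for 781. The 10 genes and all lists were chosen with earlier results of these data known.

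Counts were filtered by filterByExpr, scaled by TMM and compared with the quasi-likelihood test of edgeR 4.0.16 (R 4.3.3), without covariates. Genes were called where the p adjusted by Benjamini-Hochberg over 15745 genes did not exceed 0.01, at any fold change, as the study's p threshold was 0.01. CPM used TMM library sizes, log2 CPM a prior count of 2, and RPKM merged exon lengths. Ratios used a pseudocount of 0.5. The replicates are separate mice by their labels, and the labels give no litters. Alternatives used DESeq2 1.42.0, limma 3.58.1, other scalings and filters, covariates and fits without each mouse. The correlation tests, the Sertoli covariate and the fit without wild type replicates 3 and 5 were added after the values were seen. Total counts were 22232097 to 29769483 per mouse, and the floor of 3 counts covers counting error only. Named are all 10 genes, the called genes of each list or else the 2 with the lowest adjusted p in the 6 pathway lists, and the 5 genes most like the mean. Wt1, Nr5a1, the adrenal cortex genes and the genes called by DESeq2 are named outside this rule, after their values were seen. The same holds for Ptgds, Klk1b21, Klk1b24, Bhmt and Hsd11b1. Mice at other ages and ChIP-Seq reads were not analysed here. Some genes of the cholesterol synthesis list are not reported here by name.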

Additional observations from a re-analysis of the deposited data

Results flagged for a closer look

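Of 32 groups of values tested for a sample far from the others, 2 were flagged by Dixon's criterion, where chance flags about 1 in 20. Rfx2-/- replicate 11 had 108 CPM of Cyp17a1, and the next of the 6 Rfx2-/- mice had 38.1 CPM. Without this mouse the log2 fold change of Cyp17a1 was -0.55 instead of 0.09, with adjusted p of 0.587 and 0.937 in edgeR's quasi-likelihood test. In the same mouse the log2 ratio of Hsd3b6 to Hsd3b1 was -0.15, and the next was -0.55. Rfx2-/- replicate 11 was also the highest of its genotype in Star, Cyp11a1, Hsd3b6, Insl3 and Lhcgr.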

How the results depend on the processing

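Hsd3b1 was called lower in every alternative except with the Sertoli score as a covariate, where 0 of the 10 genes were called lower (529 of all 15745 tested genes were called in either direction, against 420 in the reported fit). Of the 10 genes, 2 were called lower with total counts as library sizes and in limma voom, 3 in DESeq2 and 3 at an adjusted p of 0.05, against 1 in the reported edgeR fit. The shares of all tested genes called lower were 2.74% with total counts, 4.33% in limma voom, 5.43% in DESeq2, 8.78% at 0.05 and 3.04% with the Sertoli score, against 1.94%. The fits without 1 mouse gave 1 to 2. None was called higher in any alternative. With total counts, the median over all tested genes was -0.22 instead of -0.05, so that directions near 0 depend on the scaling. Cyp17a1, which was never called, turned to -0.028 with total counts, -0.022 in limma voom, -0.42 with the spermatid score, -0.43 with the Sertoli score and -0.25 without wild type replicates 3 and 5. The causes were not tested.

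Without 1 mouse at a time, the log2 fold change ranged from -0.55 to 0.45 for Cyp17a1, from -0.54 to 0.21 for Star and from -0.29 to 0.12 for Hsd3b6, none of them called. Calls of Lhcgr at the threshold of 0.01 came with total counts (adjusted p = 0.00925), DESeq2 (0.000116) and limma voom (0.00373), and in the edgeR fits without wild type replicate 1 or 4. The log2 ratio of Hsd17b3 to Akr1c14 differed by -0.89 to -0.58 without 1 mouse, and passed an adjusted p of 0.05 in the exact permutation test without wild type replicate 4 (0.0286). The ratio of Insl3 to Cyp11a1 differed by -0.092 to 0.192. The other values of the 10 genes and 6 ratios kept their direction and their side of the threshold (0.01, and 0.05 for ratios), except that DESeq2 called Hsd17b3 (adjusted p = 0.0046).

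Called genes of the 6 lists were recounted with DESeq2 size factors, total counts, DESeq2, limma voom and the spermatid score. They were not recounted in the other alternatives, such as the Sertoli score and the fits without 1 mouse. Their counts changed by more than 1.5 times as follows. DESeq2 called 2 genes of cholesterol uptake, 1 of the electron donors and 5 of the Leydig regulators, where edgeR called 0. Limma voom called 1 of cholesterol uptake and 1 of the Leydig regulators. The spermatid score gave 1 of the Leydig regulators and 6 instead of 2 of the other Leydig markers, and DESeq2 size factors in edgeR gave 1 instead of 2 of the genes responding to androgen or INSL3. No paired analysis was possible because the replicate numbers of wild type mice (1 to 5) and Rfx2-/- mice (6 to 11) do not overlap and the labels name no litters. Insl3, at 7 to 53 counts per mouse, is the gene whose depth limits detection most.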
